A study of Mus musculus with 52 samples.

Results

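The 8 genes described here encode collagen chains typical of fibroblasts and the enzyme that joins them: Col1a1, Col1a2, Col3a1, Col5a1, Col5a2, Col6a1, Col6a2 and Lox. Earlier results of these data were known when they were chosen. The choice was by name, as every probe of the deposited table whose platform annotation gave one of these symbols. This gave 18 of 20794 probes and 8 of 9030 named genes, and all 8 were tested in all 13 comparisons, on 4 arrays each except on 3 for Col3a1 in PDCUMNT vs ZFCUMNT, Col5a1 in HM-1 NT vs ZFCUMNT and Col5a2 in #4 (B6) vs ZFCUMNT. Col1a2 had 4 probes, Col5a1 and Lox had 3, Col1a1, Col5a2 and Col6a2 had 2, and Col3a1 and Col6a1 had 1. In the mouse genome Col1a1 (Entrez gene 12842) lies on chromosome 11, Col1a2 (12843) on chromosome 6, Col3a1 (12825) and Col5a2 (12832) on chromosome 1, Col5a1 (12831) on chromosome 2, Col6a1 (12833) and Col6a2 (12834) on chromosome 10 and Lox (16948) on chromosome 18.

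Collagens are triple helices of alpha chains. Type I collagen, built from the products of Col1a1 and Col1a2, and type III, built from that of Col3a1, form the banded fibrils of connective tissue, and type V, built in part from the products of Col5a1 and Col5a2, starts those fibrils and limits their width. Type VI collagen, which needs the chains of Col6a1 and Col6a2, forms beaded microfibrils around cells. Lox is lysyl oxidase, a copper enzyme that oxidises lysines of collagen and elastin so that the fibres become cross-linked. Fibroblasts make these proteins in bulk, whereas undifferentiated embryonic stem (ES) cells are not known for them.

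The study set 7 mouse ES cell lines against each other on 52 two-colour arrays, 4 for each of 13 direct comparisons. They were HM-1 and HM-1 NT, then #4 (B6), B6NT and B6PGA, and last PDCUMNT and ZFCUMNT. The labels give no genotype, passage or treatment and leave the letters in these names unexplained. According to the series description, donor nuclei came from different cells, and a pair of lines was made from nuclei of cumulus cells, which surround the oocyte, with a different cloning method for each. On each array 20 µg of total RNA of each line went into the labelling reaction, and arrays 1 and 2 of a comparison carried the second-named line in Cy5 while on arrays 3 and 4 it was in Cy3. The protocol text mentions organs and a pooled reference, but both channels of every array name an ES line. Nothing says that the 4 arrays of a comparison came from separate cultures, so all p-values measure the spread between arrays, which may be technical. Each line was measured in bulk, so a different share of cells of some type and a different amount of RNA per cell cannot be told apart.

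Values are log2 ratios of the second-named over the first-named line, given with the standard error (SE) of the fit. A gene was called where the limma adjusted p was under 0.05, adjusted by the Benjamini-Hochberg method over all features tested in that comparison. The deposited table does not say which dye is the numerator. The signs here read it as Cy5 over Cy3, and under the other reading every sign turns at once. A dye swap with no dye effect gives a negative correlation between arrays of opposite orientation before turning. Here this mean rank correlation was above 0 in 12 of the 13 comparisons, so the sign in every comparison rests on the dye labels. It was highest where HM-1 met #4 (B6), at 0.487, and where it met HM-1 NT, at 0.220. Arrays of the same orientation correlated more highly than those of opposite orientation in 12 of 13, the exception being HM-1 NT vs ZFCUMNT (0.110 beside 0.164). In HM-1 vs B6PGA, where most of the calls below lie, the correlation was 0.0127 between opposite and 0.230 between same orientations. The table holds ratios and no channel signals, so neither the level of a collagen nor that of an ES cell marker in a line could be checked against background.

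Promoters of the called genes are shown because these genes had values of the same sign in the comparison with the most calls. The RefSeq table (GRCm38.p6) held promoters of 5 of the 8 genes. The 250 bases before the annotated start of the called genes among them follow, 5′ to 3′ on the gene's strand, with matches on either strand to the CCAAT box, the TATA box (TATAAA) and the GC box (GGGCGG) in capitals. Col6a2 has more than 1 annotated start, and its windows overlap.
Col1a2, chr6:4505368-4505617, forward strand: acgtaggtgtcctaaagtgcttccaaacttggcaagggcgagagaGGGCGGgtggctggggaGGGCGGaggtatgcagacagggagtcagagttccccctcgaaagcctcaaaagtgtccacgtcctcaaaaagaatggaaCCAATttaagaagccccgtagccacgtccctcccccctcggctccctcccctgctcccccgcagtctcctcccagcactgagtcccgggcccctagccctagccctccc
Col3a1, chr1:45311288-45311537, forward strand: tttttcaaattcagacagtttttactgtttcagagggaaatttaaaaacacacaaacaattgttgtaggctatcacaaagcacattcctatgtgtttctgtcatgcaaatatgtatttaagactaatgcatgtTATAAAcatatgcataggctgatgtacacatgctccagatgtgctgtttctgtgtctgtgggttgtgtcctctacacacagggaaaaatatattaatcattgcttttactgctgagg
Col6a2, entry 1, chr10:76623405-76623654, reverse strand: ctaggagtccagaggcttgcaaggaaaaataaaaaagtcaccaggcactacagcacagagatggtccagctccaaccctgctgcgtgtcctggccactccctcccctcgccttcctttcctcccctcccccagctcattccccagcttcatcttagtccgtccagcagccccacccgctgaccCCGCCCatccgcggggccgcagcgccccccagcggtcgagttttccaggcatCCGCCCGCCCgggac
Col6a2, entry 2, chr10:76623631-76623880, reverse strand: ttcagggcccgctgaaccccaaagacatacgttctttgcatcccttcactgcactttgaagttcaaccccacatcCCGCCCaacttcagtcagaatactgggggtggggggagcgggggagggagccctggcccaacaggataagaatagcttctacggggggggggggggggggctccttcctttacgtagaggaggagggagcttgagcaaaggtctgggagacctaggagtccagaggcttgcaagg
Col1a2 held CCAAT at -109 to -105 and GGGCGG at -205 to -200 and at -188 to -183, counted from the start. Col3a1 held TATAAA at -117 to -112 and none of the other motifs. Entry 1 of Col6a2 held GGGCGG, read on the other strand as CCGCCC, at -67 to -62, -15 to -10 and -11 to -6, the last pair overlapping, and entry 2 held it at -175 to -170. Among 32536 promoter windows of the same length, 33.8% held CCAAT, 12.3% held TATAAA and 33.0% held GGGCGG on either strand, and no motif was shared by the promoters of all 3 genes. The share of G and C was 62.0% for Col1a2, 35.2% for Col3a1 and 64.4% and 59.2% for the entries of Col6a2.

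Of the 104 tests of 8 genes in 13 comparisons, 8 were called, against 0.532% of all tests of all features. Since the genes were chosen with earlier results of these data known, such counts here and below are a description. The calls fell on Col1a1, Col1a2, Col3a1, Col6a2 and Lox, and 7 of the 8 were positive. HM-1 vs B6PGA held 5 of them. Of all 104 values 72 were positive. Over all features the share of positive values ran from 42.6% in HM-1 vs PDCUMNT to 59.1% in PDCUMNT vs ZFCUMNT. All 8 genes had positive values in HM-1 vs HM-1 NT, B6NT vs HM-1 NT and B6NT vs ZFCUMNT, where 44.8%, 51.1% and 57.3% of all features were positive. Per gene, Col1a2, Col3a1 and Col5a2 were positive in 11 comparisons, Col6a1 in 10, Col6a2 in 9, Col5a1 and Lox in 7 and Col1a1 in 6. These counts are not independent, since the comparisons share lines and the sign depends on which line is named first. HM-1 was always named first, and in the line fit given below it lay under the mean of the lines for all 8 genes.

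**Figure D1:**
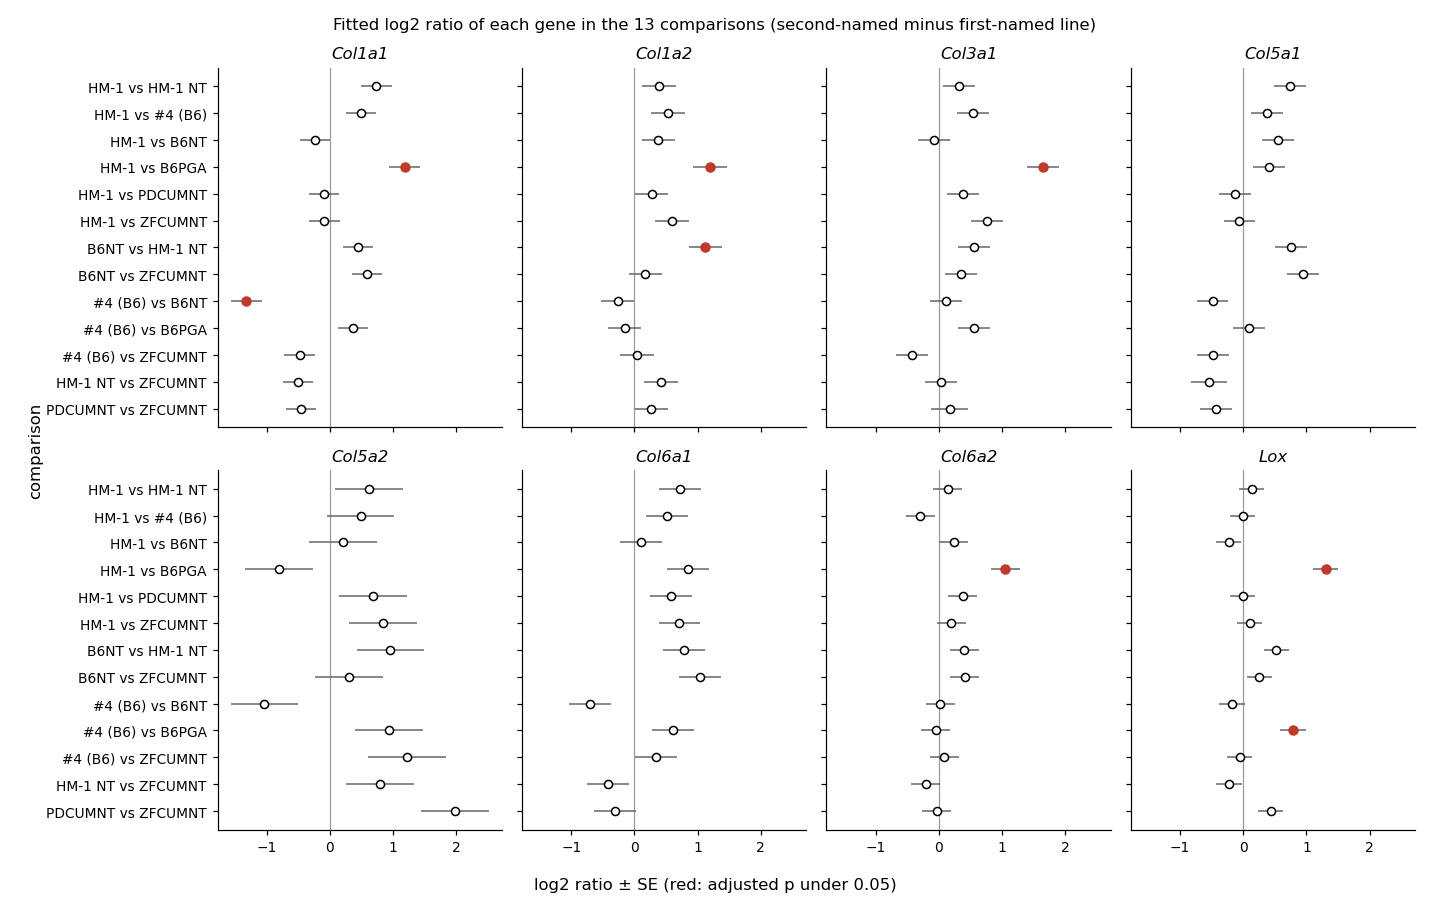
Fitted log2 ratio with its SE (x axis) in the 13 comparisons (y axis), a panel per gene; red points had an adjusted p under 0.05. The 5 red points in HM-1 vs B6PGA belong to Col1a1, Col1a2, Col3a1, Col6a2 and Lox, and the single red point below 0 is Col1a1 in #4 (B6) vs B6NT at -1.32.

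In HM-1 vs B6PGA the called genes, all toward B6PGA, were those of type I and type III collagen, 1 chain of type VI and Lox. In this comparison 5 of 8 genes were called, all positive, against 0.494% of 16191 features called in either direction and 0.389% called positive. The median of the 8 genes was 1.12 and that of all features -0.04. On all 4 arrays 7 of the 8 genes were positive, against 6.68% of features.

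Col3a1, the chain of type III collagen, was at 1.84, 1.99, 1.15 and 1.60 on arrays 1 to 4. The fitted value was 1.64 ± 0.25, a 3.13-fold ratio (limma adjusted p = 1.8e-04). All 4 arrays lay well above 0 in both dye orientations, and this was the highest value of the 8 genes in the comparison. Col1a1, the more abundant chain of type I collagen, was at 1.95, 1.10, 1.13 and 0.55, which gave 1.18 ± 0.24 (limma adjusted p = 0.0077). Array 1 was highest and array 4 lowest, with no array below 0. Col1a2, its partner chain in the type I helix, was at 1.48, 1.02, 1.04 and 1.25, which gave 1.20 ± 0.26 (limma adjusted p = 0.017). The arrays of Col1a2 lay close together across the dye swap, whereas Col1a1 spread over more than a log2 unit. Col5a1, a chain of type V collagen, was at 0.66, 0.76, 0.21 and 0.02, for a fitted 0.41 ± 0.25 that was not called (limma adjusted p = 1.0). Col5a2, which joins Col5a1 in type V collagen, was the exception in sign, at -1.58, -0.19, -0.52 and -0.95. Its fitted value of -0.81 ± 0.54 was not called (limma adjusted p = 1.0), and its SE was the widest of the 8 genes.

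Col6a2, a short chain of type VI collagen, was at 1.10, 0.72, 0.40 and 1.98 in HM-1 vs B6PGA. The fitted value was 1.05 ± 0.23 (limma adjusted p = 0.015), with array 4 far above array 3 of the same dye orientation. Col6a1, its neighbour on chromosome 10 and partner in the type VI helix, was at 0.41, 0.92, 0.44 and 1.65. Its value of 0.85 ± 0.33 was not called (limma adjusted p = 0.43), although it too was positive on every array and highest on array 4. Lox, the cross-linking enzyme, was at 1.49, 1.19, 1.37 and 1.17. These 4 values lay closest together among the called genes and gave 1.31 ± 0.20, a 2.47-fold ratio (limma adjusted p = 1.7e-04).

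The 5 calls differed in how far they rested on single arrays. Col3a1 kept its call without any of the 4 arrays of this comparison (adjusted p from 0.0016 to 0.0055), and so did Lox (9.4e-04 to 0.0034). Col1a1 lost its call without array 1 (adjusted p = 0.087) or array 3 (0.070). Col1a2 lost it without array 1 (0.087), array 3 (0.070) or array 4 (0.108). Col6a2 lost it without array 1 (0.087) or array 4 (0.267). The count of called genes was therefore 2 without array 1, 5 without array 2, 3 without array 3 and 3 without array 4. Without the dye term Col1a1 (adjusted p = 0.141) and Col1a2 (0.054) lost their calls. Fitted on its own 4 arrays with no spread shared with the other comparisons, HM-1 vs B6PGA gave 0 called genes by limma and 6 at an unadjusted p under 0.05.

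**Figure D2:**
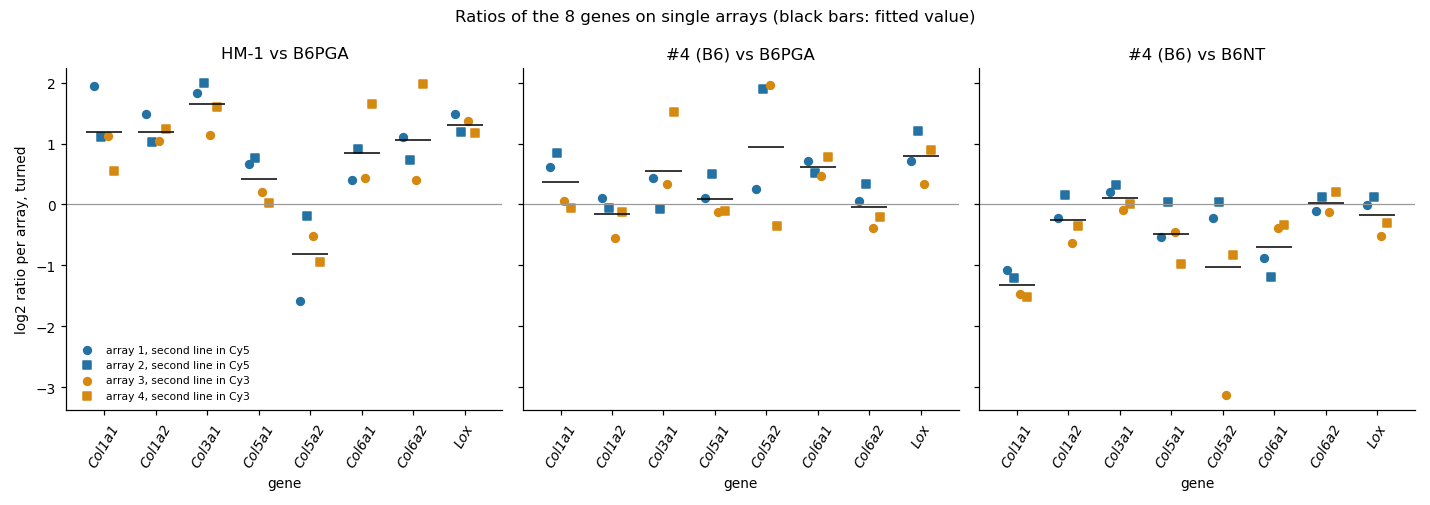
Log2 ratio of each gene (x axis) on the single arrays (y axis) of 3 comparisons; blue is the second-named line in Cy5, orange in Cy3, and black bars are fitted values. In HM-1 vs B6PGA the points of Col1a1, Col1a2, Col3a1, Col6a2 and Lox all lie above 0; in #4 (B6) vs B6NT all 4 points of Col1a1 lie below -1.

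The probes of a gene did not always move together in HM-1 vs B6PGA. For Lox the probe numbered 18465 had 2.13, 1.74, 3.18 and 2.48 on the 4 arrays and the probe numbered 1634 had 2.12, 1.65, 1.24 and 1.24, while the probe numbered 20341 had 0.21, 0.18, -0.31 and -0.20. Tested singly these were at 2.38 ± 0.29 (limma adjusted p = 2.6e-06), 1.56 ± 0.36 (0.024) and -0.03 ± 0.19 (1.0), so the call for Lox rests on 2 of its 3 probes. For Col1a2 the probes numbered 19601 and 18436 were each at 1.79, with SE 0.24 and 0.52, and only the former passed alone (adjusted p = 1.2e-05 and 0.126). Its other probes were at 0.95 and 0.26. For Col6a2 the probe numbered 1568 was at 1.76 ± 0.34 (limma adjusted p = 0.0056) and the probe numbered 19546 at 0.34 ± 0.24 (1.0), so 1 probe carried the gene's value. Col1a1 had probes at 1.06 ± 0.48 and 1.11 ± 0.23, close to each other, of which the more precise passed (adjusted p = 0.0075).

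The negative value of Col5a2 came mainly from a probe measured on 2 of the 4 arrays, at -3.58 and -0.76, while its other probe had 0.42, 0.37, -0.52 and -0.95. That probe of Col5a2, numbered 3991, had the widest spread of the 18 over all arrays (SD 2.23) and was measured on 37 of 52. Over the arrays that measured both probes of a pair, the turned ratios of different probes of a gene correlated at 0.53 for Col1a1, from 0.00 to 0.26 for Col1a2, from -0.35 to 0.53 for Col5a1, at -0.02 for Col5a2, at 0.08 for Col6a2 and from 0.04 to 0.13 for Lox. Apart from Col1a1 and 1 pair of Col5a1, the probes of a gene thus shared little of their variation over arrays.

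**Figure D3:**
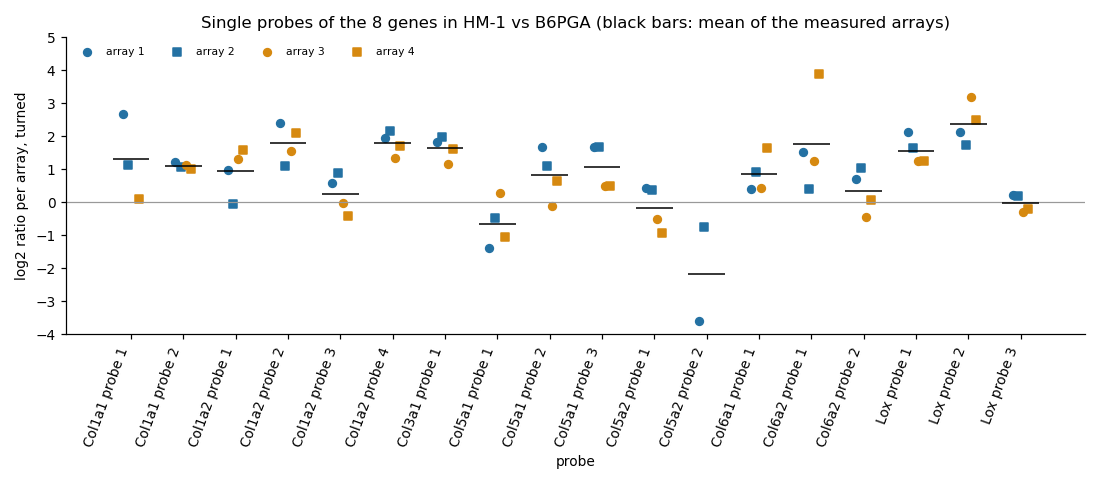
Log2 ratio on each array (y axis) for the 18 probes of the 8 genes (x axis) in HM-1 vs B6PGA; blue is B6PGA in Cy5, orange in Cy3, and black bars are means of the measured arrays. The third bar of Lox lies at -0.03, whereas the others lie at 1.56 and 2.38.

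B6PGA was also set against #4 (B6), a line whose name carries the same B6. There 1 of the 8 genes was called, against 1.22% of 15535 features. Lox was at 0.71, 1.21, 0.34 and 0.89 and fitted at 0.79 ± 0.20 (limma adjusted p = 0.031). All 4 arrays were positive, with array 3 the lowest. The call was lost without array 1, 2 or 4 (adjusted p up to 0.162), with array weights (0.079), without the dye term (0.066) and without the comparisons of HM-1 with HM-1 NT, #4 (B6) and B6NT (0.094). The probe of Lox numbered 1634 passed alone at 1.59 ± 0.36 (limma adjusted p = 0.010), whereas the probes numbered 18465 and 20341 were at 0.35 ± 0.29 (0.81) and 0.42 ± 0.19 (0.41). Here 1 probe thus carried the call. Col3a1 was at 0.55 ± 0.25 and Col1a1 at 0.36 ± 0.24, with 1 array of each below 0, and neither was called (adjusted p = 0.42 and 0.70). Col6a1 was positive on all 4 arrays, from 0.47 to 0.77, at 0.61 ± 0.33 (adjusted p = 0.56). Col1a2, at -0.16 ± 0.26, and Col6a2, at -0.05 ± 0.23, lay near 0 here, whereas they were called against HM-1. The 2 comparisons share the line B6PGA and were not tested against each other.

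#4 (B6) vs B6NT held the only negative call. Of the 8 genes 1 was called, against 0.245% of 15914 features. Col1a1 was at -1.08, -1.21, -1.48 and -1.52, so the arrays of both dye orientations lay below -1, and the fitted value was -1.32 ± 0.24 (limma adjusted p = 0.0018). It kept the call without any single array of the comparison (adjusted p from 0.011 to 0.041) and had no call without the dye term (0.10). Its probes were at -1.65 ± 0.42 (limma adjusted p = 0.078) and -0.997 ± 0.23 (0.026), so only the more precise passed alone. Col1a2, its partner in type I collagen, was at -0.23, 0.15, -0.63 and -0.35, for -0.26 ± 0.26 (adjusted p = 1.0). Col6a1 was negative on all 4 arrays, from -1.20 to -0.34, at -0.70 ± 0.33 (adjusted p = 1.0). Col5a2 was at -1.04 ± 0.54 with array 3 at -3.13, and Col5a1 at -0.48 ± 0.25. Col3a1 (0.11 ± 0.25), Col6a2 (0.02 ± 0.23) and Lox (-0.18 ± 0.20) lay within their SE of 0. Among the fibroblast markers other than collagens and Lox, 7 of 8 tested had negative values in this comparison, where 50.6% of all features were positive. Timp3, an inhibitor of matrix metalloproteinases, was called at -1.15 ± 0.19 (limma adjusted p = 5.6e-04). The part of these markers in the value of Col1a1 was not tested.

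The other comparison of a line with the line of its name plus NT, HM-1 vs HM-1 NT, had Col1a1 on the other side of 0, at 1.16, 1.13, 0.23 and 0.43. The arrays with HM-1 NT in Cy5 lay above those with it in Cy3. Its fitted value of 0.74 ± 0.24 was not called (limma adjusted p = 0.28), and none of the 8 genes was called there, against 0.254% of features. The value of HM-1 vs HM-1 NT less that of #4 (B6) vs B6NT was 2.06 ± 0.34 for Col1a1 (8 arrays, limma adjusted p = 6.5e-04). It was the only one of the 8 genes called for this difference, against 0.197% of 15227 features. Col6a1 had a difference of 1.42 ± 0.47 (adjusted p = 0.39), Col5a1 of 1.22 ± 0.36 (0.23) and Col5a2 of 1.66 ± 0.76 (0.90), each with the same signs as Col1a1 in both comparisons. The differences of Col1a2 (0.66), Lox (0.31), Col3a1 (0.21) and Col6a2 (0.12) were below 2 SE. The call of Col1a1 was lost without the dye term (limma adjusted p = 0.059) and with the ratios left as they stand, where the difference was 0.23. In the latter setting a difference between lines cancels across the dye swap if the dye labels hold. Its probes tested singly gave 2.82 for the probe numbered 4863 (limma adjusted p = 0.042) and 1.36 for the probe numbered 4894 (0.051).

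In B6NT vs HM-1 NT all 8 genes had positive values, with a median of 0.66 against 0.01 over all features, and 5 were positive on all 4 arrays against 7.66% of features. Of the 8 genes 1 was called, against 1.04% of 15221 features. Col1a2 was at 1.83, 1.02, 0.21 and 1.43, for 1.12 ± 0.26 (limma adjusted p = 0.024). Array 3 was far below the others. The call was lost without array 1 or 4 (adjusted p up to 0.169), with arrays scaled to equal spread (0.078), without the dye term (0.057) and with top values kept (0.114). The 4 probes of Col1a2 were far apart, at 2.83 ± 0.81, 1.10 ± 0.52, 0.52 ± 0.24 and 0.05 ± 0.33, and none passed alone (limma adjusted p from 0.080 for the highest to 1.0 for the lowest). Col5a1 was positive on all arrays, from 0.32 to 1.63, at 0.76 ± 0.25 (adjusted p = 0.16). Lox was also positive on all arrays, from 0.11 to 1.12, at 0.52 ± 0.20 (0.27).

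None of the 8 genes was called in the remaining comparisons. Of these, Col5a2 in PDCUMNT vs ZFCUMNT came closest to a call, at 3.42, 4.03, 0.61 and -0.13. The arrays with ZFCUMNT in Cy5 stood far above the others, and the fitted 1.98 ± 0.54 had an adjusted p of 0.062 by limma. Col5a1 in B6NT vs ZFCUMNT was at 1.16, 1.87, -0.06 and 0.83, for 0.95 ± 0.25 (adjusted p = 0.15). Col6a1 was positive on all 4 arrays of that comparison, from 0.56 to 1.51, at 1.04 ± 0.33 (0.37). Col3a1 in HM-1 vs ZFCUMNT was at 1.39, 1.30, 0.05 and 0.32, for 0.77 ± 0.25 (0.43). Col1a2 in HM-1 vs PDCUMNT had the narrowest spread of that gene, from 0.23 to 0.35, around 0.27 ± 0.26 (0.86). These are means of 4 probes that lay far apart, from -1.35 to 1.30 on array 2. Background rates were 0.219% of features called in HM-1 vs #4 (B6), 0.170% in HM-1 vs B6NT, 1.14% in HM-1 vs PDCUMNT, 0.101% in HM-1 vs ZFCUMNT, 0.124% in B6NT vs ZFCUMNT, 0.935% in #4 (B6) vs ZFCUMNT, 0.292% in HM-1 NT vs ZFCUMNT and 0.763% in PDCUMNT vs ZFCUMNT.

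The ratios of most of these genes held a part that stayed the same across the dye swap. Arrays were not centred, so shifts shared by all features enter that part, and no value over all features is given beside it. The dye term, the part of the ratio that did not turn with the swap, was 0.61 ± 0.15 for Col5a2, 0.40 ± 0.07 for Col1a1 and 0.30 ± 0.07 for Col3a1. It was 0.20 ± 0.07 for Col1a2, 0.20 ± 0.09 for Col6a1, 0.15 ± 0.07 for Col5a1, 0.10 ± 0.06 for Lox and -0.06 ± 0.06 for Col6a2. It cancels in the fitted values of comparisons with all 4 arrays measured and widens the spread between arrays where it is not fitted.

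A fit of 1 level per line over all arrays placed the lines in order. Levels are log2 values relative to the mean of the 7 lines, and B6PGA and PDCUMNT were on 8 arrays each, against 24 for HM-1. B6PGA was the highest line for 6 of the 8 genes. It was set directly only against HM-1 and #4 (B6), so its differences from the other lines are inferred through other comparisons. Calls of B6PGA against several lines thus share the same 8 arrays and are not independent. Lox was at 0.92 ± 0.13 in B6PGA, then at 0.09 ± 0.10 in HM-1 NT, -0.06 ± 0.09 in #4 (B6), -0.07 ± 0.08 in ZFCUMNT, -0.19 ± 0.07 in HM-1, -0.35 ± 0.13 in PDCUMNT and -0.35 ± 0.09 in B6NT. Lox in B6PGA differed from each of the 6 other lines (limma adjusted p from 7.9e-06 against HM-1 to 0.032 against HM-1 NT), and no pair among the other 6 was called. Col3a1 was at 0.89 ± 0.17 in B6PGA, 0.09 ± 0.12 in #4 (B6), 0.00 ± 0.14 in HM-1 NT, 0.00 ± 0.11 in ZFCUMNT, -0.14 ± 0.18 in PDCUMNT, -0.32 ± 0.12 in B6NT and -0.51 ± 0.09 in HM-1. Its calls were B6PGA against HM-1 (2.2e-05), B6NT (0.0087) and #4 (B6) (0.047).

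Col1a1 spread most widely over the lines, by 1.48 from B6PGA to B6NT. It was at 0.82 ± 0.16 in B6PGA, 0.38 ± 0.11 in #4 (B6), 0.15 ± 0.13 in HM-1 NT, -0.10 ± 0.16 in PDCUMNT, -0.28 ± 0.09 in HM-1, -0.29 ± 0.10 in ZFCUMNT and -0.66 ± 0.11 in B6NT. B6NT was below B6PGA (limma adjusted p = 7.5e-05), #4 (B6) (6.1e-05) and HM-1 NT (0.013), and B6PGA was above HM-1 (5.4e-04) and ZFCUMNT (0.0059). #4 (B6) was above HM-1 (0.012) and ZFCUMNT (0.038). Col1a2 also had B6PGA as the highest line, with #4 (B6), HM-1 NT and PDCUMNT below it in the same order as for Col1a1. It ran from 0.37 ± 0.19 in B6PGA to -0.28 ± 0.13 in B6NT and -0.48 ± 0.10 in HM-1. Between these lay ZFCUMNT (0.19), which stood lower in the order for Col1a1, #4 (B6) (0.18), HM-1 NT (0.17) and PDCUMNT (-0.14). The only call of Col1a2 was ZFCUMNT above HM-1, by 0.67 ± 0.16 (limma adjusted p = 0.018).

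Col6a1 was at 0.45 ± 0.21 in B6PGA, 0.32 in HM-1 NT, 0.27 in PDCUMNT, 0.15 in ZFCUMNT, -0.07 in #4 (B6), -0.50 ± 0.11 in HM-1 and -0.63 ± 0.14 in B6NT. Its calls were HM-1 below B6PGA (limma adjusted p = 0.048) and HM-1 NT (0.044) and B6NT below HM-1 NT (0.025). Col6a2 had the narrowest range, from 0.32 ± 0.16 in B6PGA to -0.25 ± 0.09 in HM-1, with no call. Col5a1 was highest in HM-1 NT (0.43 ± 0.16) and lowest in B6NT (-0.36 ± 0.13), and Col5a2 highest in ZFCUMNT (0.87 ± 0.24) and lowest in PDCUMNT (-0.36 ± 0.38), both with no call. In all, 20 of 168 tests of pairs of lines were called, against 0.491% over all features and pairs (0.00645% to 1.86% in single pairs), and 13 of the 20 involved B6PGA. Of the 48 steps between neighbours in these orders 2 were called, B6PGA to #4 (B6) for Col3a1 and B6PGA to HM-1 NT for Lox, and no difference beyond the spread was found between the other neighbours. The step of Col3a1 rested on a narrow margin, since its call was lost with the replicate block (adjusted p = 0.055) and without any of 36 of the 52 arrays. The calls of Col6a1 were lost without 36 arrays for HM-1 and B6PGA, 22 for HM-1 and HM-1 NT and 4 for HM-1 NT and B6NT, each left out singly. Lox between HM-1 NT and B6PGA was lost without any of 10 arrays and Col1a1 between #4 (B6) and ZFCUMNT without any of 14, while the other 14 calls held without each single array. Without the comparison HM-1 vs B6PGA 8 pairs were called, and without the 3 comparisons of HM-1 with HM-1 NT, #4 (B6) and B6NT 10 were.

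**Figure D4:**
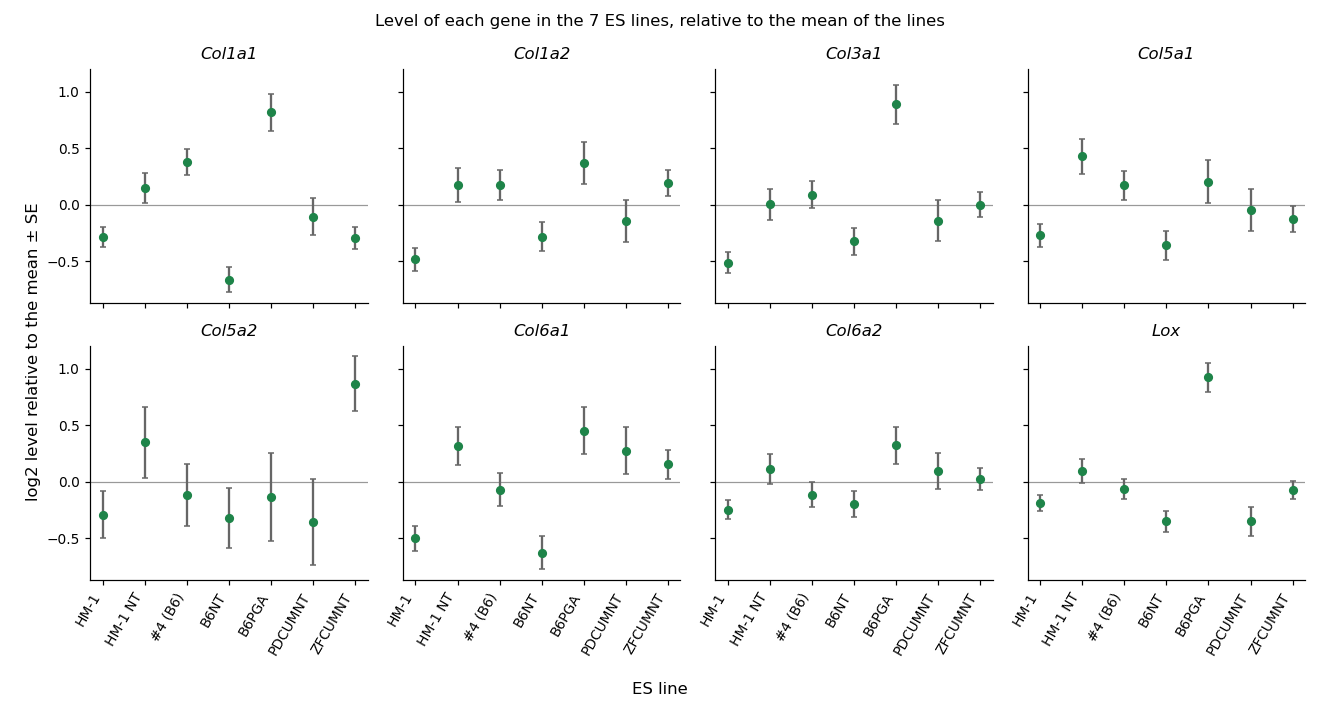
Level of each gene in the 7 ES lines (x axis) relative to the mean of the lines, as log2 with the SE of the fit (y axis). B6PGA is the top point for Col1a1, Col1a2, Col3a1, Col6a1, Col6a2 and Lox, most clearly for Lox at 0.92, and B6NT or HM-1 is the lowest for all but Col5a2 (B6NT and PDCUMNT are level at -0.35 for Lox).

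The line fit assumes that values around a closed loop of comparisons sum to 0. None of the 8 genes was called for a departure from this (limma F test over 7 loops), against 0.0664% of 16565 features, and 3 had an unadjusted p under 0.05, namely Col5a1 (0.016), Col5a2 (0.035) and Col1a2 (0.047). For the step from HM-1 to B6PGA, the route through #4 (B6) gave 1.10 for Col3a1 beside 1.64 measured directly, 0.78 beside 1.31 for Lox and 0.85 beside 1.18 for Col1a1. It gave 0.37 beside 1.20 for Col1a2, 1.13 beside 0.85 for Col6a1 and 0.47 beside 0.41 for Col5a1. For Col5a2 the route gave 1.43 beside -0.81 and for Col6a2 -0.35 beside 1.05, so these 2 genes had opposite signs by the 2 ways. The route passes through HM-1 vs #4 (B6), where arrays of opposite orientation correlated most highly. With the sign of that step turned, an alternative chosen after seeing the data, the route gave 0.004 for Col3a1, -0.13 for Col1a1 and 0.80 for Lox. It then gave -0.68 for Col1a2, 0.10 for Col6a1, -0.28 for Col5a1, 0.46 for Col5a2 and 0.25 for Col6a2. Col6a2 thus had the sign of its direct value, and Col5a2 still had the opposite sign.

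Array by array, the 8 genes were only partly alike. Over the arrays that measured both genes of a pair, with the dye term removed, the Pearson correlation of the turned ratios had a median of 0.26 over the 28 pairs, from -0.32 to 0.55, and 24 were positive. These arrays share lines and dye orientation, so the values are a description. The highest were Col1a1 with Col3a1 (0.55), with Col6a1 (0.53) and with Col5a1 (0.51), and Col3a1 with Lox (0.52). The lowest was Col5a2 with Col6a2 (-0.32). The partner chains Col1a1 and Col1a2 were at 0.31, Col6a1 and Col6a2 at 0.20 and Col5a1 and Col5a2 at -0.08. Partner chains of a helix were therefore not the most alike pairs here.

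Among 7677 named genes measured on at least 45 arrays, the 5 most like the mean of the 8 genes were Tcf7l2 (0.63), a transcription factor of Wnt signalling, App (0.62), the amyloid precursor, Timp3 (0.61), Mmp2 (0.60), a gelatinase that cuts matrix proteins, and Fbln2 (0.59), a secreted matrix glycoprotein. Those most like Col1a1 were App (0.64), Serpinh1 (0.62), the collagen chaperone of the endoplasmic reticulum, and Tcf7l2 (0.62). Those most like Lox were Mmp14 (0.62), a membrane-bound matrix metalloproteinase, Ltbp2 (0.62), a microfibril protein, and Hnrnpll (0.61), an RNA-binding protein. These Pearson correlations over up to 52 arrays carry no test.

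Genes that make, bind or cut collagen came from fixed lists. Beside the counts below, 0.494% of all features were called in HM-1 vs B6PGA and 45.2% had positive values. In HM-1 vs B6PGA 1 of 17 tested genes of collagen synthesis and cross-linking was called, Serpinh1 at 1.08 ± 0.20 (limma adjusted p = 0.0036), and the list's median was 0.21. Of the collagen-binding and other matrix genes 3 of 18 were called, all positive: Sparc, a collagen-binding matrix protein, at 1.25 ± 0.27 (adjusted p = 0.013), Fbln2 at 1.10 ± 0.18 (3.5e-04) and Fn1, fibronectin, at 0.99 ± 0.25 (0.049). Of this list 16 of 18 values were positive, with a median of 0.74. Of the other collagens 0 of 10 tested were called by limma, with 9 positive values and a median of 0.35. In #4 (B6) vs B6PGA 3 of 13 other collagens, 11 of 17 synthesis genes and 13 of 19 matrix genes were positive, against 48.3% of features. None of them was called there, against 1.22% of features. Outside HM-1 vs B6PGA these lists had 3 calls in 12 comparisons, with 11 to 19 genes of each list tested per comparison. Over all features and all 13 comparisons 0.532% of tests were called, and these 3 calls lie near that share. They were Timp3 in #4 (B6) vs B6NT, given above, and Fbln2 in B6NT vs ZFCUMNT (0.84 ± 0.18, limma adjusted p = 0.039). The last was P3h4, a partner of a collagen lysine hydroxylation complex, in HM-1 NT vs ZFCUMNT (1.20 ± 0.29, 0.049).

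Fibroblast markers other than the collagens and Lox were mostly positive in HM-1 vs B6PGA and mostly negative in #4 (B6) vs B6PGA. In the latter 2 of 7 tested were positive, with a median of -0.13 and 0 called by limma. Of all features there 48.3% were positive and 1.22% called. In HM-1 vs #4 (B6) 6 of 8 tested were positive, against 45.2% of all features. This list shares genes with the matrix list, among them Fn1, Timp3 and Dcn, so the lists are not independent. Of 12 fibroblast markers listed, 9 were tested in HM-1 vs B6PGA and 8 were positive, against 45.2% of all features. The median was 0.64, in a range from -0.46 to 1.29. Fn1 and Vim, the intermediate filament of mesenchymal cells (0.97 ± 0.21, limma adjusted p = 0.017), were called, against 0.494% of all features. S100a4 was at 1.29 ± 1.22, Dcn at 1.17 ± 0.65, Thy1 at 0.64 ± 0.29, Pdgfrb at 0.60 ± 0.38, Timp3 at 0.58 ± 0.19, Pdgfra at 0.29 ± 0.39 and Fap at -0.46 ± 0.31, none of them called. Of the 7 tested ES cell markers 1 was called, Zfp42 at -2.14 ± 0.41 (limma adjusted p = 0.0041). Pou5f1 was at -0.10 ± 0.22 and the list's median at -0.10. Zfp42 was also called against HM-1 in #4 (B6) (-2.85), B6NT (-2.90), PDCUMNT (-2.53) and ZFCUMNT (-2.44), so its negative value was not particular to B6PGA. In #4 (B6) vs B6PGA 2 of 7 tested ES cell markers were called, Klf4 and Dppa5a at 1.81 each, against 1.22% of features. Both were also called in #4 (B6) vs B6NT (1.01 and 2.12) and in HM-1 vs #4 (B6) (-0.82 and -1.41). Dppa5a was called in #4 (B6) vs ZFCUMNT too (2.04). Each of these values was lower in #4 (B6), so those against B6PGA were not particular to B6PGA. Of the 6 endoderm markers tested in HM-1 vs B6PGA, Sparc, also in the matrix list, was the only one called, and the list's median was 0.07. Of mesoderm and muscle markers 3 of 7 were tested and 0 called by limma, and of cumulus cell markers 1 of 7 was tested and 0 called. The part of these markers in the values of the 8 genes was not tested. Vim was also called in HM-1 vs #4 (B6) (1.04 ± 0.21, limma adjusted p = 0.015) and in #4 (B6) vs ZFCUMNT (-1.05 ± 0.21, 0.0070), where none of the 8 genes was.

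**Figure D5:**
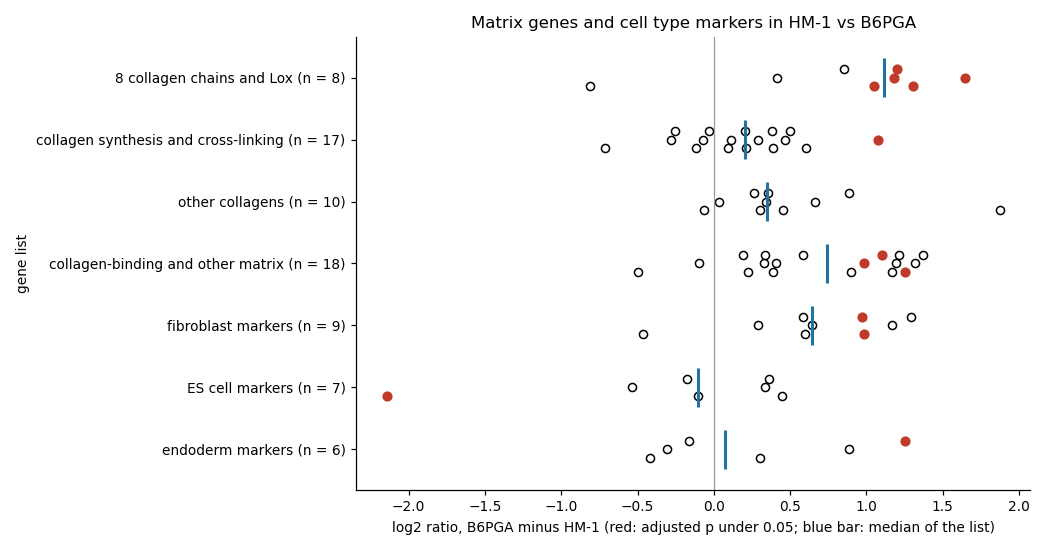
Log2 ratios in HM-1 vs B6PGA (x axis) for the 8 genes and 6 lists of related genes or cell type markers (y axis); red points had an adjusted p under 0.05 and blue bars are medians. The median falls from 1.12 for the 8 genes to 0.74 for other matrix genes, 0.64 for fibroblast markers and 0.35 for other collagens.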

How the data were processed

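The values deposited by the authors are log2 ratios between the channels of 52 two-colour arrays, with 17620 to 20200 measured probes per array. The scanner, background correction and normalization are not given in the sources used here. The log base and the numerator dye are not stated per the labels. Read as log2 and divided by 1 factor per array, 93.6% of the 12510 ratios under 0.1 were whole multiples of 0.001 (tolerance 0.05 steps), with over 90% on each of 47 arrays, so the base was taken as 2. Array medians ran from -0.207 to 0.472 and were not centred. On each array 20 to 174 probes shared 1 top value and were treated as not measured, among them 1 value of Col1a2 and 4 of Col5a2.

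Probes were named through the platform annotation, and probes of a symbol were averaged on each array (17053 features, unnamed probes included). Ratios were turned by the dye labels to second-named minus first-named line. All 52 arrays were fitted together with the model of limma 3.58.1 in R 4.3.3 (least squares with moderated variances), with a coefficient per comparison and a dye term per feature; a feature was tested in a comparison when at least 3 of 4 arrays measured it in both orientations. A second fit gave 1 level per line (features on at least 40 arrays), and an F test covered 7 loops of comparisons. Adjustment of p-values followed Benjamini and Hochberg, over all features of a comparison or pair of lines. The fits were tested on simulated data. The number of arrays, 4 per comparison, limits the precision.

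The 8 genes are all named whatever their values. Genes of collagen synthesis, matrix and other collagens were named from fixed lists where called in at least 1 comparison. The tested fibroblast markers and some ES cell markers were named, called or not, as were the genes most like the members by Pearson correlation over arrays. Members and lists were chosen with earlier results of these data known. Array numbers recur in every comparison and code the dye orientation, and the arrays share only a number. Alternatives covered untouched signs, the dye term, top values, centring, scaling, array weights, complete measurement, single probes, a replicate block, each comparison alone and left-out arrays and comparisons.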

Additional observations from a re-analysis of the deposited data

Results flagged for a closer look

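Of 101 sets of 4 arrays of a gene in a comparison, 5 had an array far from the others by Dixon's ratio, and chance gives about 1 in 20. Col1a2 in HM-1 vs B6NT had array 3 at 1.61, with the others from -0.17 to 0.11. Col5a1 in #4 (B6) vs ZFCUMNT had array 4 at -0.033, with the others from -0.68 to -0.59. Col6a1 in HM-1 vs #4 (B6) had array 3 at -0.075, with the others from 0.65 to 0.78. Col6a1 in #4 (B6) vs ZFCUMNT had array 1 at 2.60, with the others from -0.58 to -0.28, so its fitted 0.35 rests on that array. Lox in HM-1 vs PDCUMNT had array 3 at -0.466, with the others from 0.08 to 0.18. None of these sets belonged to a called value.

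Col1a1 differed between both NT comparisons by a test of the difference, at 2.06 ± 0.34 (limma adjusted p = 6.5e-04), with 4 positive arrays against HM-1 and 4 negative arrays against #4 (B6).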

How the results depend on the processing

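The counts depended on how the arrays were turned and fitted. With ratios as they stand a difference between lines cancels across the dye swap if the dye labels hold, so few calls can remain there. The 8 calls over the 13 comparisons became 0 with ratios as they stand, 3 with no dye term and 0 with each comparison fitted alone (25 at an unadjusted p under 0.05 by limma). They ranged from 5 to 9 when single arrays were left out, with 5 without array 1 of HM-1 vs B6PGA. The 5 calls in HM-1 vs B6PGA became 0, 3 and 0 under the same settings, and 2 to 5 without single arrays. The 20 calls between lines became 3 with ratios as they stand, 10 with no dye term, 33 with arrays scaled to equal spread, 10 without the 3 comparisons of HM-1 with HM-1 NT, #4 (B6) and B6NT, 0 with each comparison averaged to 1 value (44 at an unadjusted p under 0.05) and 8 without HM-1 vs B6PGA. They ranged from 15 to 25 without single arrays. The count of 0 genes called for loop closure was 0 under every setting run. With the array number as a replicate block the counts were 8 and 20, and 1 call was lost, Col3a1 between #4 (B6) and B6PGA (adjusted p = 0.055).

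With ratios as they stand, signs turned for Col1a1 in #4 (B6) vs B6NT (0.18) and Col6a2 in HM-1 vs B6PGA (-0.14), and between lines for Col1a1 from #4 (B6) to ZFCUMNT (0.31) and from B6PGA to ZFCUMNT (0.16), Col3a1 from #4 (B6) to B6PGA (-0.31) and from B6NT to B6PGA (-0.068), Col6a1 from HM-1 to B6PGA (-0.081) and Lox from B6PGA to PDCUMNT (0.24) and to ZFCUMNT (0.064). This setting averages arrays of both dye orientations without turning them. If the dye labels hold, a difference between lines cancels in it and the part that depends on the dye remains. Lost calls and turned signs under it are then built in and do not measure how firm a call is. The probe of Lox numbered 20341, tested singly, turned the sign in HM-1 vs B6PGA (-0.028) and from HM-1 NT to B6PGA (-0.12). With top values kept, Col1a2 in HM-1 vs B6PGA had an adjusted p of 0.171. Centring the arrays on their medians and using only completely measured features lost none of the 8 direct calls. The setting that leaves out 3 comparisons was chosen after seeing the data.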
